A study of Mus musculus with 16 samples.

Results

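The interaction between genotype and running was examined in the dentate gyrus of aged mice, that is, whether 12 days of voluntary running changed each transcript by a different amount in p16 knockout and in p16 wild-type animals. For each gene the interaction was the running effect in the knockout (p16 KO RUN against p16 KO CTL) minus the running effect in the wild type (p16 WT RUN against p16 WT CTL), on a log2 scale. All 16 of the 16 libraries entered, and 17317 of the 24421 gene names in the tables reached a mean of 0.1 TPM (the length-corrected share of a library's transcripts) and were tested. All animals were male C57BL/6 mice aged 1 year. The knockout carried the p16Ink4a null allele on both chromosomes (a line first made in FVB mice and crossed back to C57BL/6, in which p19Arf remains functional), and the wild type carried none. CTL animals stayed in standard cages without a wheel and RUN animals had free access to a running wheel. Each group was measured in 4 libraries (numbered 1 to 4 for p16 WT CTL, 5 to 8 for p16 KO CTL, 9 to 12 for p16 WT RUN and 13 to 16 for p16 KO RUN), and each library pooled the dentate gyri of 2 mice, which leaves the spread among individual animals unmeasured. The deletion is present in every cell from conception, and the tissue was taken whole, so that fewer cells of a type and less RNA per cell cannot be told apart.

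The p16Ink4a protein, a product of Cdkn2a, binds the cyclin D-dependent kinases CDK4 and CDK6 and so keeps the retinoblastoma protein active, which holds cells back from entering S phase. In the dentate gyrus, neural stem cells in the subgranular zone divide, pass through Eomes-positive progenitors and Dcx-positive neuroblasts and become granule neurons. This production falls with age, and voluntary running is a known stimulus of it in young rodents. The study asked which genes follow running in the knockout but not in the wild type.

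Before the interaction was read, the libraries were compared. Granule neuron identity was present in every library: Prox1, the transcription factor that specifies granule neurons, ranged from 58.1 to 187 TPM and the calcium-binding protein Calb1 from 89.2 to 231 TPM. The results were touched by single libraries in 3 ways. First, p16 WT CTL 2, p16 KO CTL 6 and p16 KO CTL 7, all sedentary, were low in RNAs that stay in the nucleus: Malat1 stood at 202, 123 and 67.1 TPM in these 3 libraries and between 359 and 856 TPM in the other 13. Second, p16 KO CTL 8 had a summed level of 8 CA1 pyramidal neuron markers of 357 scaled TPM, against 118 to 139 in the other p16 KO CTL libraries and 86.7 to 218 elsewhere. Last, p16 KO CTL 7 had a summed level of the choroid plexus markers of 241 scaled TPM, against 20.2 to 68.1 in the others. Counts are therefore also given without the 3 libraries low in nuclear RNA, an alternative added after the data were seen. Cdkn2a itself was listed at 0 in 3 libraries of p16 KO RUN, in 1 of p16 WT RUN and in 2 of each sedentary group, and its highest value was 0.586 TPM (p16 WT CTL 2). The gene-level value includes exons of p19Arf, which the line keeps, so it does not check the genotype labels.

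No gene passed the adjusted threshold for the interaction, 0% of those tested: by limma with Benjamini-Hochberg adjustment the smallest adjusted p was 0.738. At an unadjusted p under 0.05, the criterion the study also used, 949 genes passed, 5.48% of the 17317, close to the 5% that this threshold passes when nothing differs. Among them 510 (2.95%) had a higher value, meaning more positive running effects in the knockout, and 439 (2.54%) a lower one. "Called" is used below only for this unadjusted criterion, and each called gene had an adjusted p between 0.738 and 0.797 (limma). An unadjusted p under 0.01 was reached by 170 genes and one under 0.001 by 17. The median size of the interaction was 0.15 over all genes and 0.48 over the called ones.

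Single libraries weighed on these counts. The interaction count was 1257 (7.243%) without the 3 libraries low in nuclear RNA, and 595 of those genes were among the 949. It was 2378 without p16 WT CTL 2, 1970 without p16 KO CTL 5 and 622 without p16 WT CTL 3. Another scaling moved the split between directions: 53.7% of the called genes were higher with the main scaling, 66.6% with TPM as deposited and 42.8% after quantile normalization.

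The 2 running effects that form the interaction gave unequal numbers of called genes. In the knockout 3537 genes (20.4%) were called for running, 2068 higher and 1469 lower, and in the wild type 976 (5.64%), 559 higher and 417 lower. In both, limma gave 0 genes at an adjusted p under 0.05. Without the 3 libraries low in nuclear RNA these counts were 1637 in the knockout and 1226 in the wild type. In the knockout the count was 2295 without p16 KO CTL 6 and 2064 without p16 KO CTL 7, and in the wild type it was 620 without p16 WT RUN 10. Both contrasts enter the interaction, so their counts are given as its components.

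The called genes were mostly ones on which running had opposite signs in the 2 genotypes, a pattern that selection on the interaction itself favours. Of the 510 higher genes, 413 (81%) had a positive running effect in the knockout and a negative one in the wild type, and of the 439 lower genes 368 (83.8%) had the reverse. For every gene the group farthest from the mean of the other 3 was also recorded. Over all genes tested this was p16 KO CTL in 48%, p16 KO RUN in 18.4%, p16 WT CTL in 18.1% and p16 WT RUN in 15.6%. Among the higher genes it was p16 KO CTL for 322 (63.1%) and p16 KO RUN for 100 (19.6%), and among the lower genes p16 KO CTL for 235 (53.5%) and p16 KO RUN for 78 (17.8%). Without the 3 libraries low in nuclear RNA, p16 KO CTL was farthest for 37.1% of all genes, 57.2% of the called higher and 56% of the called lower genes, and p16 KO RUN for 18.6%, 9.3% and 9.15%. The sedentary knockout was more often the farthest group than the running knockout in both counts, for called genes as for all genes. The second count cannot check the first, because only sedentary groups lost libraries and means of fewer libraries vary more. In it p16 WT CTL, which also lost a library, was farthest for 29.8% of all genes and p16 WT RUN for 14.5%. In the first count p16 KO CTL includes libraries low in nuclear RNA, and their part in its share was not tested.

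**Figure D1:**
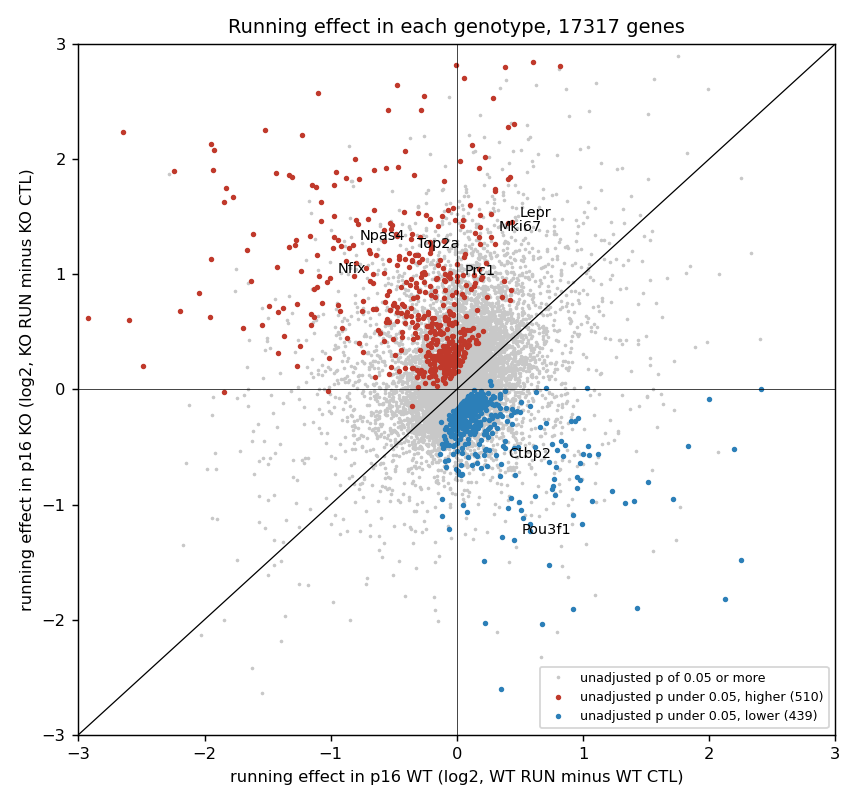
Running effect in the wild type (horizontal axis, log2) against running effect in the knockout (vertical axis, log2) for the 17317 genes tested; points on the diagonal have no interaction, red points are the 510 genes called higher, blue points the 439 called lower and grey points the rest, and 13 genes lie outside the axes. Called genes sit mainly in the upper left and lower right, where running has opposite signs in the 2 genotypes.

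Genes of mitosis and of the G2/M transition included many higher values. Of 34 tested members of this list, 11 were called higher and 0 lower, 32.4% against 2.95% of all genes, and 29 of 34 had a positive value. Of the called members, Mki67, Top2a, Cenpf, Prc1, Knstrn and Ncapd2 belong to the study's larger gene selection. The study chose that selection on the interaction in these same libraries, so the list count is not independent of it. The median interaction of the list was 0.53, against 0.02 over all genes. Alternative processing that kept all libraries gave medians from 0.25 to 0.58. Without the 3 libraries low in nuclear RNA, 10 were called higher and 1 lower, and the median was 0.44. Leaving out single libraries gave between 6 and 14 called higher, with 6 without p16 WT CTL 4 or without p16 KO RUN 16, and 7 without p16 WT CTL 3 or without p16 KO CTL 6. The same 34 genes counted for running alone gave 14 called higher and 0 lower in the knockout, and 1 higher and 1 lower in the wild type. Over all genes running gave 11.9% higher and 8.48% lower in the knockout, and 3.23% higher and 2.41% lower in the wild type. With the 3 libraries left out, 9 of the 34 were higher and 1 lower in the knockout, against 5.59% of all genes higher there, and 0 higher and 3 lower in the wild type. The summed level of the list was 84.3 to 85.7 scaled TPM in p16 KO RUN, 64.0 to 83.2 in p16 WT CTL, 73.0 to 78.4 in p16 WT RUN and 63.9 to 76.3 in p16 KO CTL, so that the running knockout lay above all other libraries by a narrow margin. Most members were low in level: with a filter at a mean of 1 TPM, 5 were called higher.

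Many promoters of such genes carry 2 short elements, CCAAT boxes bound by NF-Y and the cell cycle homology region, TTTGAA, through which the DREAM and MuvB complexes act. Both were searched on both strands (CCAAT or ATTGG, and TTTGAA or TTCAAA) in the RefSeq windows from 250 bases before to 50 after the start site (GRCm38.p6), where 29 of the 35 listed genes had a window. Of the 31 windows of the list, 26 (83.9%) held CCAAT, 24 (77.4%) TTTGAA and 23 (74.2%) both, against 37.4%, 17.9% and 6.95% of all 32851 windows. Windows of the called members and of the other members were alike in this: both motifs were present in 8 of 11 windows (72.7%) of the former and in 15 of 20 (75%) of the latter. These are matches of letters and not measured binding. The windows of Top2a, Mki67, Cenpf and Prc1 are shown because these 4 called genes are the ones described in most detail below, with motif letters in capitals and the gene's strand read 5′ to 3′.
Top2a (GRCm38.p6, chr11:99024140-99024439, minus strand, 6 CCAAT and 2 TTTGAA matches): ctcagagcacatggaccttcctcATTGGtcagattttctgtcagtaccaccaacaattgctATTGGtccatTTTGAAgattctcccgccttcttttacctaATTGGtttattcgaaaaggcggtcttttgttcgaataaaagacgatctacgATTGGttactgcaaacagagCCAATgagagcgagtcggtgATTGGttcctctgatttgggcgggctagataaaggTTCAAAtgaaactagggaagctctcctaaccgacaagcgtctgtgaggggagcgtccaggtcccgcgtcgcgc
Mki67 (chr7:135716330-135716629, minus strand, 3 CCAAT and 2 TTTGAA matches): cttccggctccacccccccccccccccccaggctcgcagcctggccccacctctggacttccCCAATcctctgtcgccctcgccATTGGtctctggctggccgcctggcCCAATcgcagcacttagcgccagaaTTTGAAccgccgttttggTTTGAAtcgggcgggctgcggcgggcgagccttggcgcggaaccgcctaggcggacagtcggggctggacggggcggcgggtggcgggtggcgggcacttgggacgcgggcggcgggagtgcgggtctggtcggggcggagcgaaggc
Cenpf (chr1:189688037-189688336, minus strand, 2 CCAAT matches and 1 TTTGAA match): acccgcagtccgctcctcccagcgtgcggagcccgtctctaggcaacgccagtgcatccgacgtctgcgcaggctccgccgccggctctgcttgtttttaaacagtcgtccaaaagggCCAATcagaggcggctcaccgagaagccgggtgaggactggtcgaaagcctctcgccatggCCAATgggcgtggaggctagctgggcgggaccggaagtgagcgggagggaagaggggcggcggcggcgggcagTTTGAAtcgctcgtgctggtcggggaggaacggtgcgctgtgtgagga
Prc1 (chr7:80294201-80294500, plus strand, 1 match of each): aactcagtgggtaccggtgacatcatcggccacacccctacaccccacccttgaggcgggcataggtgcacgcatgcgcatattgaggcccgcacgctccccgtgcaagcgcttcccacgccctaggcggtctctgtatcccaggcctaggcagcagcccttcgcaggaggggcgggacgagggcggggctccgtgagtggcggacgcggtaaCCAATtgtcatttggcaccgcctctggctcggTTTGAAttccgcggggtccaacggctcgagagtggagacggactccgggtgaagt

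Mki67 encodes the chromosome-coating protein Ki-67, present in cycling cells and absent from resting ones (mm10 chromosome 7, 135689788 to 135716379, minus strand). Its TPM was 1.47, 0.527, 1.43 and 1.36 in p16 WT CTL, 0.957, 1.53, 1.55 and 1.59 in p16 WT RUN, then 1.01, 0.630, 0.491 and 0.818 in p16 KO CTL, and 1.97, 1.80, 2.15 and 2.19 in p16 KO RUN. All 4 running knockout libraries lay above the other 12, and the sedentary knockout had 3 of the 5 lowest values. The interaction was 1.05 ± 0.39 (SE), with an adjusted p of 0.797 (limma), made of a running effect of 1.32 in the knockout and 0.27 in the wild type. It was 1.08 without the 3 libraries low in nuclear RNA (called), and between 0.89 and 1.35 with any single library left out.

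Top2a encodes topoisomerase II alpha, which untangles sister chromatids before they part (chromosome 11, 98992947 to 99024189, minus strand). Its TPM was 0.375, 0.155, 0.546 and 0.451 in p16 WT CTL, 0.242, 0.221, 0.125 and 0.523 in p16 WT RUN, then 0.367, 0.293, 0.492 and 0.276 in p16 KO CTL, and 0.763, 1.36, 0.844 and 0.958 in p16 KO RUN. The running knockout again lay above the other 12 libraries, which overlapped one another. The interaction was 1.56 ± 0.50 (SE), and 1.96 without the 3 libraries (called). It was called in all 16 fits with a library left out, at 1.34 to 1.84.

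Cenpf, a protein of the outer kinetochore (chromosome 1, 189640614 to 189688086, minus strand), had 0.450, 0.274, 0.491 and 0.506 TPM in p16 WT CTL, 0.385, 0.388, 0.285 and 0.397 in p16 WT RUN, then 0.361, 0.372, 0.384 and 0.243 in p16 KO CTL, and 0.520, 0.586, 0.648 and 0.639 in p16 KO RUN. The running knockout did not overlap the other groups. The interaction was 0.81 ± 0.33 with all libraries and 1.12 (called) without the 3. The call was lost without p16 WT CTL 4, without p16 KO CTL 8 or without p16 WT RUN 11, with values that stayed between 0.69 and 0.95.

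Prc1, which bundles the microtubules of the central spindle (chromosome 7, 80294451 to 80316259, plus strand), had 1.97, 0.967, 2.54 and 2.02 TPM in p16 WT CTL, 1.34, 1.84, 2.26 and 1.84 in p16 WT RUN, then 1.89, 0.918, 0.838 and 1.58 in p16 KO CTL, and 2.24, 2.15, 3.23 and 2.85 in p16 KO RUN. The running knockout lay above the sedentary knockout and overlapped both wild-type groups. The interaction was 0.94 ± 0.40, was 0.78 without the 3 libraries (called), and was called in 8 of the 16 fits with a library left out, at 0.79 to 1.19.

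Other called members were Ccna2, the cyclin of S phase and G2 (1.13 ± 0.46), Knstrn, a spindle and kinetochore protein (1.04 ± 0.39), and Ncapd2, a condensin subunit that compacts mitotic chromosomes (0.40 ± 0.17). Without the 3 libraries their values were 0.92, 1.04 and 0.43, all called. Knstrn held in all 16 fits with a library left out, Ccna2 in 11 and Ncapd2 in 8. The remaining 4 called members had means under 1 TPM and are named here after their values were seen. They were the central spindle kinesin Kif23 (1.71 ± 0.54), the mitotic kinase Cdk1 (1.54 ± 0.56), the MuvB partner Mybl2 (1.43 ± 0.47) and cyclin B1, Ccnb1 (1.26 ± 0.55). Kif23 (1.84), Cdk1 (2.24) and Mybl2 (1.16) stayed called without the 3 libraries and Ccnb1 (1.30) did not. Cdk1 had 0.200 to 0.372 TPM in p16 KO RUN and 0 to 0.143 in the other 12 libraries. Kif23 differed in form: its running effect was 0.56 in the knockout and -1.16 in the wild type, where p16 WT RUN had 0, 0.0954, 0.130 and 0.209 TPM against 0.138 to 0.552 in p16 WT CTL.

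**Figure D2:**
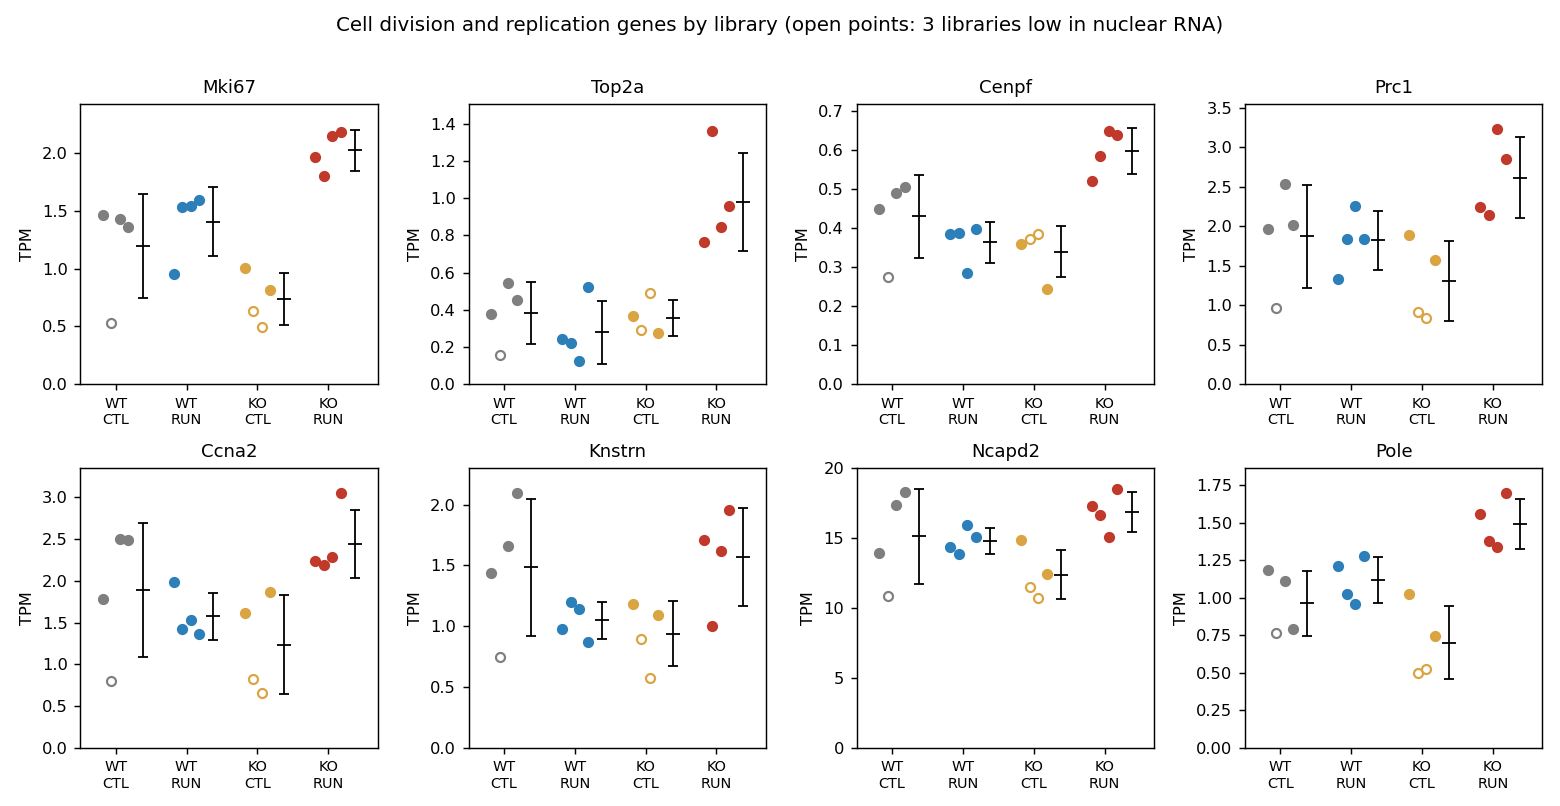
TPM (vertical axis, linear from 0) of 7 mitosis genes and the replication gene Pole in each library; points are libraries, open points are p16 WT CTL 2, p16 KO CTL 6 and p16 KO CTL 7, and bars show the mean and SD of the 4 libraries of a group. In Mki67, Top2a, Cenpf and Pole the 4 p16 KO RUN points lie above all others, while in Prc1, Ccna2, Knstrn and Ncapd2 they overlap p16 WT CTL.

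Of 28 S phase genes, 1 was called higher and 0 lower, 3.57% higher against 2.95% over all genes, and 23 had a positive value with a median of 0.24. The count was 6 without p16 WT RUN 10, the highest with 1 library left out. Alternative processing that kept all libraries gave 0 to 4 called higher and medians from 0.095 to 0.29. The called gene was Pole, the catalytic subunit of the leading-strand polymerase epsilon. Its TPM was 0.766 to 1.19 in p16 WT CTL, 1.21, 1.03, 0.955 and 1.28 in p16 WT RUN, then 1.03, 0.499, 0.528 and 0.744 in p16 KO CTL, and 1.56, 1.38, 1.34 and 1.70 in p16 KO RUN, with the running knockout above all others. The interaction was 0.78 ± 0.31, and 0.56 (not called) without the 3 libraries low in nuclear RNA. Most of the MCM helicase and the clamp Pcna gave small values, such as 0.07 for Mcm4 and -0.07 for Pcna. Of the 22 tested genes of the pathway p16 acts on (CDK inhibitors, D cyclins, CDK4 and CDK6, the retinoblastoma family and E2F factors), limma called 0 in either direction at the unadjusted threshold and 0 at the adjusted one. Their median was 0.04, and without the 3 libraries it was -0.04 with 1 gene called lower. Cyclin D1 (Ccnd1) gave -0.11, Cdk4 0.04 and Rb1 -0.01. Cdkn1a, which encodes the inhibitor p21, gave 0.40 ± 0.33 and was not called.

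Stem cell and neuroblast markers did not follow the mitosis genes in one direction. Of 14 tested neural stem cell genes, 0 were called higher and 3 lower, 21.4% lower against 2.54% over all genes, with a median of -0.29. Several of them, such as Gfap and Sox9, are shared with astrocytes, and of the 13 astrocyte genes 0 had a positive value, with a median of -0.24 and 0 calls in either direction (limma, unadjusted), which became 5 lower without p16 WT CTL 2. The astrocyte sum was highest in p16 KO CTL 6 and 7 (4992 and 5031 scaled TPM). Without the 3 libraries low in nuclear RNA the stem cell median was -0.27, with 3 called lower, and the astrocyte median -0.14. With a nuclear RNA score as covariate the stem cell median was -0.25, with 2 called lower. The astrocyte median was then -0.12, with 1 called lower. Hopx, a marker of quiescent radial glia-like stem cells, had 175, 243, 127 and 194 TPM in p16 KO CTL and 106, 98.2, 175 and 88.1 in p16 KO RUN, against 118, 147, 174 and 113 in p16 WT CTL and 111, 171, 145 and 141 in p16 WT RUN. All 4 groups overlapped. The interaction was -0.77 ± 0.32, and was called in 10 of 16 fits with a library left out. Sox9, which maintains stem cells and specifies astrocytes, stood at 33.2, 39.3, 35.6 and 33.3 TPM in p16 KO CTL and 28.6, 28.2, 27.0 and 25.9 in p16 KO RUN, without overlap, while p16 WT CTL (27.2 to 34.3) and p16 WT RUN (25.5 to 31.4) overlapped. Its interaction was -0.33 ± 0.14, called in 10 of 16 such fits. Also lower was Fabp7, a fatty acid-binding protein of radial glia, at -0.60 ± 0.28, called in 5 of 16. The count of 3 became 0 without p16 WT CTL 4, without p16 KO CTL 6 or without p16 KO RUN 16, and 5 without p16 WT CTL 2. Tfap2c, an activator of neurogenic divisions, had a mean under 0.1 TPM and was not tested.

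Of 14 genes of neuroblasts and immature neurons, 2 were called higher and 0 lower, 14.3% higher against 2.95% over all genes, with a median of 0.12. This count was 1 and the median 0.05 without the 3 libraries, the median was 0.0092 with a nuclear RNA score as covariate, and it turned to -0.0066 without p16 KO CTL 7. Both called genes have means under 1 TPM and are named after their values were seen. Eomes, which marks intermediate progenitors, had 0.288, 0.405, 0.538 and 0.115 TPM in p16 WT CTL, 0, 0.0880, 0.109 and 0.237 in p16 WT RUN, then 0.364, 0.220, 0.340 and 0.138 in p16 KO CTL, and 0.389, 0.770, 0.762 and 0.639 in p16 KO RUN. The wild type was lower when running and the knockout higher, with 1 running knockout library inside the range of p16 WT CTL. Its interaction was 2.07 ± 0.59, and 2.08 (called) without the 3 libraries. The guidance protein Draxin gave 0.90 ± 0.35, and 0.80 (not called) without the 3 libraries. Dcx, the microtubule protein of neuroblasts, gave 0.14 ± 0.24, and its sign turned without the 3 libraries (-0.15). All 14 mature granule neuron genes had positive values with a median of 0.28, and limma called 0 of them at the unadjusted or the adjusted threshold, while Prox1 gave 0.33 ± 0.34. Of the 14 genes 3 were called higher without the 3 libraries, with a median of 0.56, a fit in which p16 KO CTL holds only libraries 5 and 8. The granule neuron sum was lowest in p16 KO CTL 8 (981 scaled TPM), which also had the highest CA1 sum, and without that library the median was 0.10 and Calb1 gave -0.17. Without p16 WT CTL 2 the median was 0.495.

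Among single genes named for the smallest unadjusted p at a mean of at least 1 TPM, the 12 higher ones ran from 0.33 to 3.84. Lpin2, a phosphatidate phosphatase of triglyceride synthesis, was the most regular. Its TPM was 66.7, 58.3, 69.7 and 68.7 in p16 WT CTL, 64.1, 73.7, 64.9 and 74.1 in p16 WT RUN, then 63.2, 54.7, 50.2 and 59.9 in p16 KO CTL, and 77.9, 77.9, 79.4 and 76.8 in p16 KO RUN, where all 4 lay above the other 12. The interaction was 0.33 ± 0.09, and 0.30 (called) without the 3 libraries.

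Smek1, a regulatory subunit of protein phosphatase 4, had 27.0, 24.4, 30.7 and 31.7 TPM in p16 WT CTL, 24.0, 26.8, 25.1 and 21.7 in p16 WT RUN, then 24.5, 26.5, 17.5 and 28.9 in p16 KO CTL, and 34.6, 29.5, 34.9 and 32.6 in p16 KO RUN. The running knockout was clear of p16 KO CTL and of p16 WT RUN, and overlapped p16 WT CTL. Its interaction was 0.62 ± 0.17, from 0.39 in the knockout and -0.23 in the wild type. Tbc1d24, a regulator of synaptic vesicle traffic, was on average also highest in p16 KO RUN (46.7 to 50.4 TPM), at 0.54 ± 0.14, with p16 WT CTL 1 inside that range at 47.4. Lpin2, Smek1 and Tbc1d24 kept their call in all 16 fits with a library left out and in the fit without the 3 libraries. Other genes of this set were the proprotein convertase Pcsk5 (0.71), the LIM-only transcription regulator Lmo4 (0.78), the synaptic cadherin Cdh9 (0.54) and Uros (0.35), an enzyme of haem synthesis. The value of 3.84 belonged to Mir6392, whose mean was 1.33 TPM. Dpf3, a reader of histone acetylation in the BAF chromatin remodelling complex, is not among the 12 and was named because the study discusses it. It gave 0.40 ± 0.13, and was called with any single library left out and without the 3 libraries.

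Nfix, a nuclear factor I transcription factor that supports the quiescence of stem cells and neuronal maturation, had values of 2 kinds. It stood at 274, 286 and 272 TPM in 3 p16 WT CTL libraries and 86.0 in p16 WT CTL 2, at 233 and 230 in p16 KO CTL 6 and 8 and 92.6 and 76.4 in p16 KO CTL 5 and 7, at 102, 110, 104 and 100 in p16 WT RUN, and at 262, 316, 255 and 312 in p16 KO RUN. No library lay between 110 and 230 TPM. All running wild-type libraries were of the low kind and all running knockout libraries of the high kind, while both sedentary groups held both. The 2 levels thus did not follow the groups in sedentary mice, and whether they are levels of RNA or a difference in how reads were assigned to the gene was not tested. Its interaction was 1.97 ± 0.52, and 2.34 (called) without the 3 libraries. Fgd4, an activator of the GTPase Cdc42 named after its values were seen, had a like split with the same limit, at 9.49, 9.54, 9.81 and 26.6 TPM in p16 WT CTL and 19.7 to 28.2 in the other 12 libraries. It was the 1 gene with an adjusted p under 0.05 in any alternative (limma, adjusted p = 0.000528 without p16 WT CTL 4), and its interaction with all libraries was -1.02 ± 0.33. It was -0.88 and not called without the 3 libraries.

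The 12 lower genes ran from -0.33 to -0.995, most of them with little spread within groups. Ppp1cb, a catalytic subunit of protein phosphatase 1 (chromosome 5, 32458970 to 32493712, plus strand), had 207, 198, 218 and 232 TPM in p16 WT CTL, 254, 250, 250 and 267 in p16 WT RUN, then 246, 236, 238 and 222 in p16 KO CTL, and 231, 235, 223 and 227 in p16 KO RUN. Running libraries were above sedentary ones in the wild type without overlap, and in the knockout the 2 treatments overlapped. The interaction was -0.35 ± 0.07, with an adjusted p of 0.738 (limma), and it was -0.28 (called) without the 3 libraries.

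Ctbp2, a transcriptional corepressor whose gene also encodes the synaptic ribbon protein RIBEYE, had 26.0, 23.9, 47.9 and 31.1 TPM in p16 WT CTL, 44.9, 34.1, 45.5 and 36.5 in p16 WT RUN, then 45.4, 37.1, 34.4 and 39.1 in p16 KO CTL, and 30.6, 19.8, 26.1 and 28.6 in p16 KO RUN. The running knockout was below p16 KO CTL and p16 WT RUN without overlap, and p16 WT CTL 3 stood above the rest of its group. Its interaction was -0.995 ± 0.24. The galactokinase Galk1 was on average also lowest in p16 KO RUN, at -0.52 ± 0.13, with 10.1, 11.1, 10.4 and 10.1 TPM in the running knockout and 12.2 to 14.4 in the sedentary one. The running knockout overlapped p16 WT CTL (10.1 to 13.7 TPM).

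Also in the lower set, Tmed7, a cargo receptor between the endoplasmic reticulum and the Golgi apparatus, gave -0.34 ± 0.07 and its relative Tmed5 -0.49 ± 0.11. Dynll2, a light chain shared by dynein and myosin V, gave -0.53 ± 0.11 with 501 to 618 TPM in p16 WT CTL and 650 to 744 in p16 KO CTL, which did not overlap. Mzt1, a small subunit of the gamma-tubulin complex that nucleates microtubules, gave -0.33 ± 0.07. These 4 kept their call without the 3 libraries and with any single library left out. The set also held Tceb1 (-0.49), which encodes elongin C, the thioredoxin-like membrane protein Tmx1 (-0.40), the RNA-binding protein Trove2 (-0.37) and Purb (-0.34), which binds purine-rich nucleic acids.

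**Figure D3:**
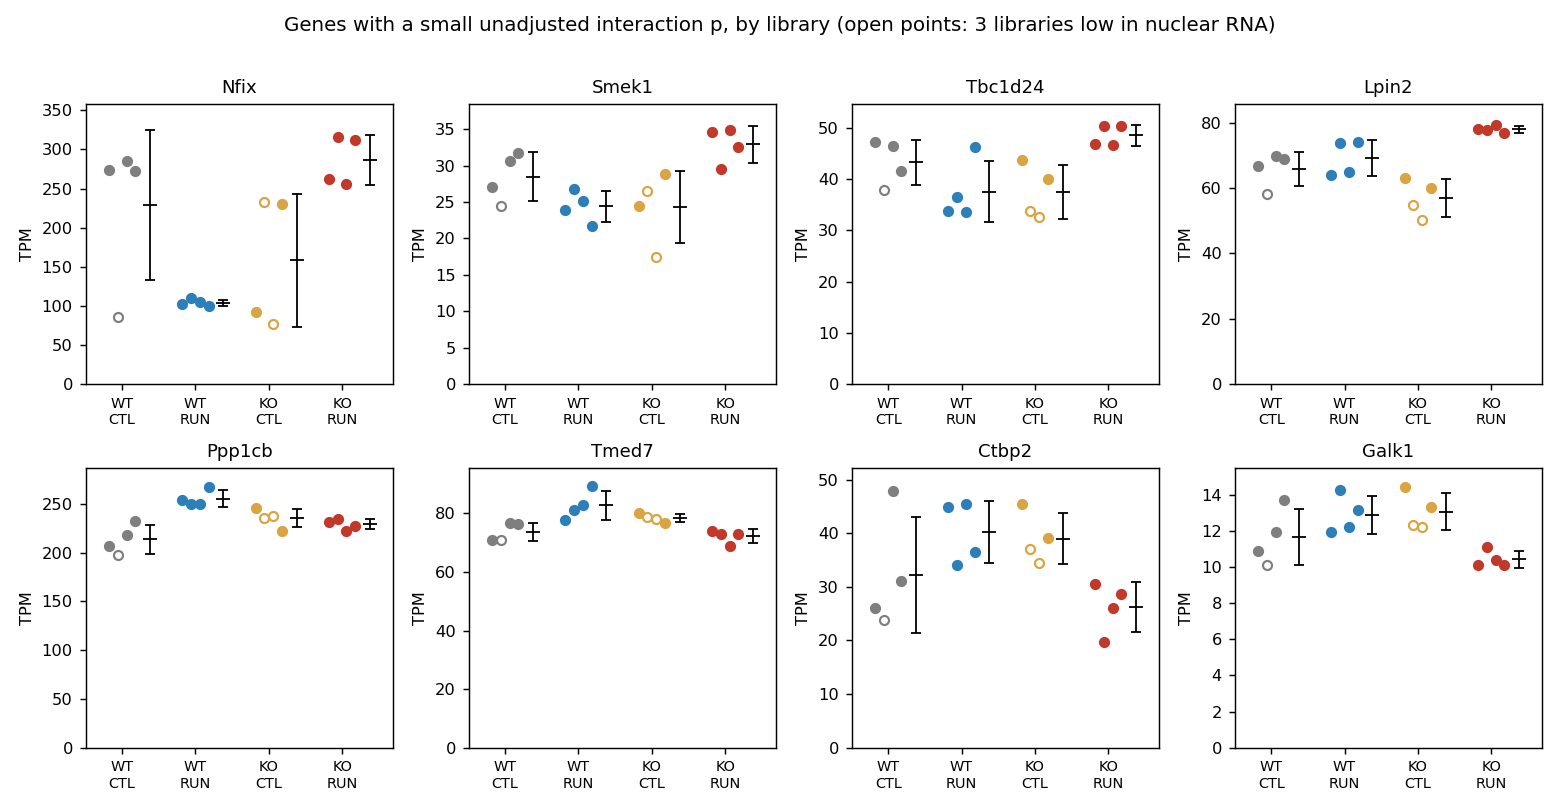
TPM (vertical axis, linear from 0) of 4 higher and 4 lower genes in each library; points are libraries, open points are the 3 libraries low in nuclear RNA, and bars show the mean and SD of the 4 libraries of a group. Nfix shows 2 separate levels with none between 110 and 230 TPM, Lpin2 lies highest in p16 KO RUN, and Ctbp2 and Galk1 lie below p16 KO CTL in p16 KO RUN.

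Neurotransmitter receptor genes gave called values in both directions. Of 22 glutamate receptor genes, 2 were called higher and 1 lower (9.09% and 4.55%, against 2.95% and 2.54% over all genes). With 1 library left out, 2 to 4 were higher (4 without p16 KO CTL 5) and 0 to 1 lower (0 without p16 WT CTL 4, p16 KO CTL 6, p16 KO CTL 7 or p16 WT RUN 11), and without the 3 libraries 1 was higher and 1 lower. Grm7, a presynaptic group III metabotropic receptor, had 54.4, 47.5, 54.7 and 50.5 TPM in p16 WT CTL, 54.8, 58.3, 51.6 and 52.0 in p16 WT RUN, then 48.6, 42.9, 43.2 and 46.6 in p16 KO CTL, and 56.3, 63.6, 56.1 and 56.4 in p16 KO RUN. All of p16 KO RUN lay above p16 KO CTL, and it overlapped p16 WT RUN. The interaction was 0.24 ± 0.09, and 0.23 (not called) without the 3 libraries. Grm3, a group II receptor found on neurons and astrocytes, gave -0.47 ± 0.19 (called in 12 of 16 fits with a library left out).

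Of 18 GABA and glycine receptor genes, 1 was called higher and 4 lower, against 2.95% higher and 2.54% lower over all genes. The higher one was Gabbr2, the signalling subunit of the GABA-B receptor, with 266, 233, 264 and 263 TPM in p16 WT CTL, 257, 272, 255 and 279 in p16 WT RUN, then 260, 217, 224 and 242 in p16 KO CTL, and 284, 296, 285 and 299 in p16 KO RUN. The running knockout lay above the other 12 libraries, and the interaction was 0.20 ± 0.07. The 4 lower ones were Glrb, the subunit that anchors glycine receptors to gephyrin (-0.26 ± 0.08), and the GABA-A subunits Gabra3 (-0.78 ± 0.33), Gabrg1 (-0.46 ± 0.19) and Gabrg3 (-0.52 ± 0.23). Gabra3 had 25.6 TPM in p16 KO CTL 8 and 7.85 to 17.3 in all other libraries. It was called in 10 of 16 fits with a library left out, at -0.98 to -0.56, and p16 KO CTL 8 was 1 of the 6 libraries whose removal ended the call. Glrb was called in all 16 such fits, Gabrg1 in 8 and Gabrg3 in 9, and the lower count ran from 1 (without p16 WT CTL 1 or p16 WT CTL 3) to 4. Library p16 KO CTL 8 also had the highest CA1 marker level, and the part of CA1 tissue in this value was not tested.

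Of 26 muscarinic and monoamine receptor and transport genes, 0 were called higher and 3 lower, 11.5% lower against 2.54% over all genes: the serotonin receptors Htr2c (-1.42 ± 0.61) and Htr7 (-0.61 ± 0.29) and the adrenergic receptor Adra1a (-0.45 ± 0.18). Htr2c ranged from 2.32 to 9.47 TPM in p16 WT CTL, from 6.38 to 15.7 in p16 KO CTL, from 5.99 to 14.2 in p16 WT RUN and from 5.39 to 9.01 in p16 KO RUN, so all groups overlapped. With 1 library left out the count ran from 0 (without p16 WT RUN 10) to 5 (without p16 WT CTL 2), and Htr2c was called in 9, Htr7 in 5 and Adra1a in 13 of 16 such fits. Of the 26 synaptic adhesion and scaffold genes 1 was called, the spine actin-binding protein Dbn1 at 0.35 ± 0.13, and 0 lower, so that 3.85% were higher against 2.95% over all genes. The count was 2 higher without p16 WT CTL 2 or p16 WT CTL 4. The leptin receptor Lepr had 1.39, 1.00, 1.55 and 2.11 TPM in p16 KO RUN and 0.219 to 0.998 in the other 12 libraries, without overlap, at 1.02 ± 0.43, and 0.62 (not called) without the 3 libraries. Ramp3, which modifies the calcitonin receptor family, was the reverse: 5.17, 4.40, 3.68 and 4.61 TPM in p16 KO RUN against 5.26 to 11.0 in all others, at -0.78 ± 0.31, and -0.45 (not called) without the 3 libraries.

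Rgs14, which limits plasticity at CA2 synapses and marks that field, had 83.0, 82.6, 97.8 and 87.4 TPM in p16 WT CTL, 96.8, 86.9, 89.8 and 85.9 in p16 WT RUN, then 102, 95.3, 86.1 and 97.6 in p16 KO CTL, and 74.9, 75.7, 67.0 and 86.8 in p16 KO RUN. Of the running knockout libraries 3 lay below all others. Its interaction was -0.42 ± 0.10, and -0.44 without the 3 libraries. Of the 9 CA2 genes it was the only one called (11.1% lower, against 2.54% over all genes), and the median of the list was -0.25, or -0.13 without p16 WT CTL 3. With the 3 libraries left out 3 of the 9 were called lower (33.3%, against 3.53% over all genes in that fit) and the median was -0.38. Single libraries left out gave 1 or 2 called lower.

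Immediate early genes, which neuronal activity induces within minutes, included 3 called higher and 0 lower of 22, 13.6% higher against 2.95% over all genes, with a median of 0.25. Npas4, a calcium-dependent transcription factor, had 9.48, 14.8, 9.79 and 3.12 TPM in p16 WT CTL, 5.26, 3.93, 6.71 and 3.14 in p16 WT RUN, then 2.92, 1.55, 1.14 and 6.47 in p16 KO CTL, and 6.40, 8.10, 8.13 and 3.46 in p16 KO RUN. All 4 groups overlapped, and the 2 lowest values were those of p16 KO CTL 6 and 7. Its interaction was 2.08 ± 0.72, and 0.99 (not called) without the 3 libraries low in nuclear RNA. Egr3 gave 0.28 ± 0.12 and Btg2 0.46 ± 0.21. The count was 1 of 22 without the 3 libraries (4.55%, against 3.72% over all genes in that fit), and the median was then 0.00. It was also 1 without any of p16 WT CTL 1, p16 WT CTL 3, p16 WT RUN 12 or p16 KO RUN 15, and the median was 0.12 without p16 WT CTL 2 and 0.39 without p16 WT CTL 4.

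Genes of protein synthesis and respiration had mostly negative values. Of 82 cytosolic ribosomal protein genes 10 were called lower and 1 higher, 12.2% against 2.54% lower over all genes, and 3 of 82 had a positive value. The median was -0.20. Rps12 had 732, 819, 776 and 794 TPM in p16 WT CTL, 766, 801, 839 and 837 in p16 WT RUN, then 817, 974, 946 and 784 in p16 KO CTL, and 749, 695, 737 and 780 in p16 KO RUN, at -0.35 ± 0.12. The 2 high values were those of p16 KO CTL 6 and 7. In sum the ribosomal genes stood at 73061 and 70311 scaled TPM in these libraries and 60390 in p16 WT CTL 2, and between 48994 and 53840 in the other 13. In p16 KO CTL 6, p16 KO CTL 7 and p16 WT CTL 2 the summed nuclear RNAs were 847, 782 and 1314 scaled TPM, against 2088 to 2755 in the others. The count was 5 and the median -0.04 without the 3 libraries. With a single library left out the count ran from 2 (p16 KO CTL 6) to 32 (p16 KO CTL 5). With a nuclear RNA score as covariate the count was 12 and the median -0.10. The part of the nuclear RNA difference in this result was not tested beyond these values. The 1 higher gene was Rpl39l, a paralog of Rpl39 at a mean of 0.15 TPM, which may share reads with it.

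Of 77 nuclear-encoded genes of oxidative phosphorylation, 7 were called lower and 0 higher, 9.09% lower against 2.54% over all genes. Of these 77 genes 0 had a positive value, and the median was -0.15. They included Ndufa7 (-0.25 ± 0.08), Cox7c (-0.35 ± 0.14) and Atp5g1 (-0.30 ± 0.13), from complexes I, IV and the ATP synthase. Without the 3 libraries 4 were called lower (5.19%, against 3.53% over all genes in that fit), with a median of -0.10, and single libraries moved the count between 1 (for example without p16 KO CTL 6) and 30 (without p16 WT CTL 2 or p16 KO CTL 5). Proteasome genes gave 0 calls of 34 with limma at the unadjusted threshold and a median of -0.09. Of them 4 were called lower without p16 KO CTL 5, and 7 with array weights. Among 31 antioxidant genes, 1 was called higher, the glutathione transferase Gstm2 (0.63 ± 0.29), 3.23% against 2.95% over all genes, and 2 lower, the superoxide dismutases Sod1 (-0.22 ± 0.10) and Sod2 (-0.20 ± 0.08), 6.45% against 2.54%. The lower count ran from 0 (without p16 WT CTL 3) to 9 (without p16 KO CTL 5), and Sod1 was called in 7 and Sod2 in 12 of 16 such fits. Gstm2 was called in 6 of 16 fits with a library left out, and was not called without the 3 libraries (0.75).

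The nuclear noncoding RNAs had a median of 0.85, the highest of the lists, and of 13 members 0 were called higher and 1, Pantr1, lower (7.69%, against 2.54% over all genes). The higher count was 5 without p16 KO CTL 5 and 3 with a nuclear RNA score as covariate, and the median was 0.43 without p16 KO CTL 7. Malat1, the retained speckle RNA, gave 1.32 ± 0.68 (not called) with all libraries and 0.65 without the 3, and the median of the list was then -0.07. The 3 libraries were picked for low nuclear RNA, so this change follows from how they were chosen.

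**Figure D4:**
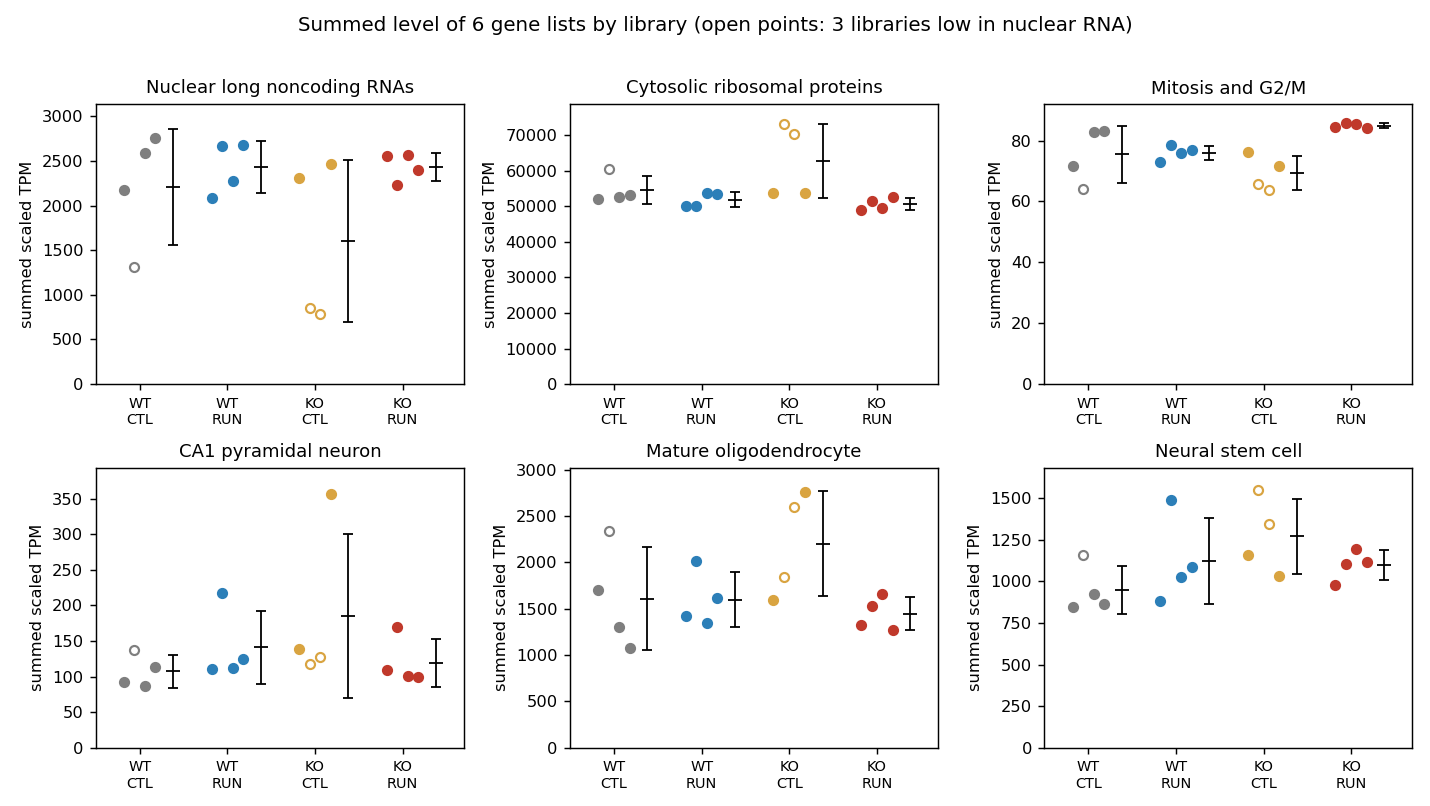
Summed level (vertical axis, scaled TPM, linear from 0) of 6 gene lists in each library; points are libraries, open points are p16 WT CTL 2, p16 KO CTL 6 and p16 KO CTL 7, and bars show the mean and SD of the 4 libraries of a group. The open points are low for nuclear RNAs and mitosis genes and high for ribosomal protein genes, and p16 KO CTL 8 stands alone in the CA1 panel at 357.

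Markers of cells outside the granule layer also differed between libraries. The 8 CA1 pyramidal neuron genes had a median interaction of -1.09, 0 positive, and 2 were called lower, Fibcd1 and Pou3f1 (25.0%, against 2.54% lower over all genes). Pou3f1 stood at 33.3 TPM in p16 KO CTL 8 and 13.1 in p16 KO CTL 5, at 3.98 to 5.35 in p16 WT CTL, and at 12.5 and 9.67 in p16 WT RUN 10 and p16 KO RUN 14, the libraries with the highest CA1 sums of their groups (218 and 170 scaled TPM). Without the 3 libraries low in nuclear RNA 5 were called lower and the median was -1.82. In that fit p16 KO CTL holds only libraries 5 and 8, and library 8 had the highest CA1 sum. This limit holds for the other lists of this paragraph in that fit too. Single libraries left out gave between 1 (for example p16 KO CTL 8) and 4 (for example p16 WT CTL 2) called lower. The CA1 median was -0.72 without p16 KO CTL 8 alone. Mature oligodendrocyte genes had a median of -0.52 with 0 of 12 positive and 1 called lower (Cnp, 8.33% of the list), 0 to 7 with 1 library left out (7 without p16 WT CTL 2), and 8 without the 3 libraries. Their summed level ran from 1596 to 2756 scaled TPM in p16 KO CTL, 1270 to 1654 in p16 KO RUN, 1073 to 2341 in p16 WT CTL and 1341 to 2016 in p16 WT RUN. The part of these marker differences in the gene results above was not tested. The 15 interneuron genes had a median of -0.22, with 1 called higher (Reln) and 1 lower (Pvalb), 6.67% each against 2.95% and 2.54% over all genes. With the 3 libraries left out 0 of them were called higher and 5 lower, Reln at 0.14 (not called), and the median was -0.34. Without p16 WT CTL 2 alone 4 were called lower, and without p16 WT CTL 3 alone the interneuron median was -0.092. Of 4 mossy cell genes 1 was called lower (Calcrl, 25.0%), and of 10 oligodendrocyte precursor genes 1 lower (Sox10, 10.0%), each 0 in some fits with a library left out. Interferon response and MHC class I genes gave 2 higher and 2 lower of 25 (8.00% each), and 0 higher without the 3 libraries or without p16 KO RUN 13. Fatty acid and triglyceride genes gave 1 higher, Lpin2, of 26 (3.85%, against 2.95% over all genes), and 0 lower, which became 5 lower without p16 WT CTL 2. CA3 pyramidal neuron, mural cell, microglia, endothelium, choroid plexus, ependyma, meninges, blood and thalamus lists gave 0 calls by limma at the unadjusted or the adjusted threshold, with medians of 0.01, 0.07, -0.19, 0.37, 0.01, -0.55, 0.09, 0.52 and 0.25. In the fit without the 3 libraries the medians of endothelium (-0.01), mural cells (-0.14) and CA3 (-0.25) turned in sign. That of microglia was 0.00, and 1 mural and 1 meningeal gene were called lower. Blood had a median of -0.18 to 1.14 with 1 library left out, choroid plexus -0.26 to 0.35 and ependyma -0.77 to -0.075. CA3 ran from -0.19 to 0.18, mural cells from -0.077 to 0.12 and thalamus from 0.047 to 0.31. Meninges ran from 0.0090 to 0.34 and endothelium from 0.21 to 0.52. Microglia ran from -0.31 to -0.083, with 2 called lower without p16 KO CTL 5. Mural cell, meninges and endothelium lists had at most 1 called higher in such fits.

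**Figure D5:**
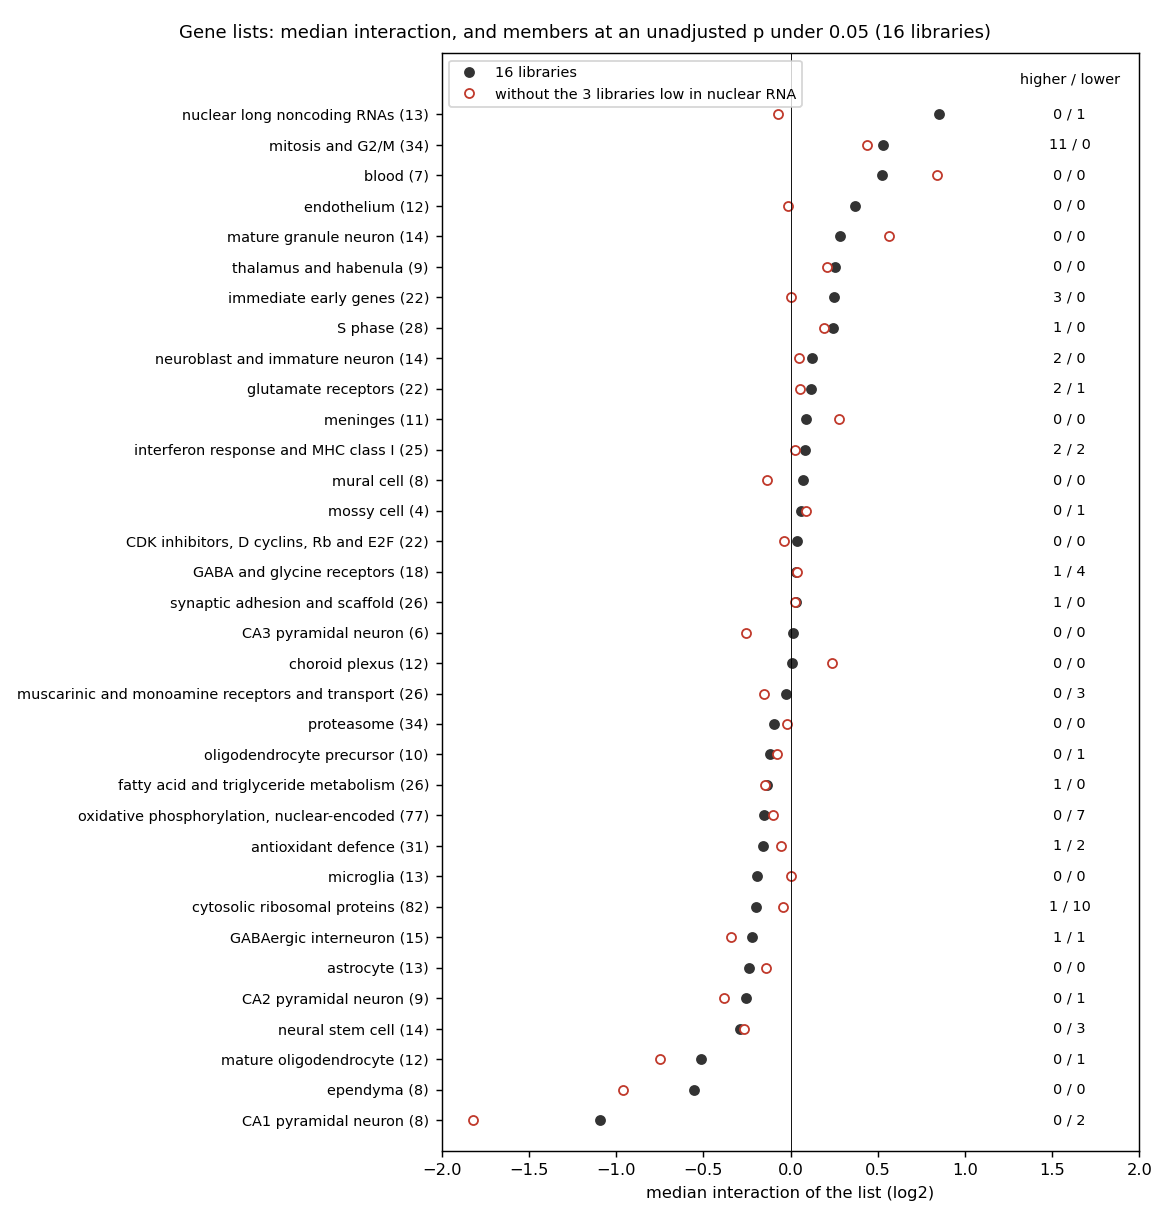
Median interaction (horizontal axis, log2) of 34 gene lists, with the number of genes tested in brackets; filled points use all 16 libraries, open points leave out the 3 libraries low in nuclear RNA, and the figures at right count members called higher and lower with all libraries. Mitosis and G2/M genes stay near 0.5 in both, while nuclear noncoding RNAs fall from 0.85 to -0.07 and CA1 markers from -1.09 to -1.82.

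Complete separation of the running knockout from the other 12 libraries was rare. Over all genes tested, 16 lay above and 11 below in all 4 p16 KO RUN libraries. Of the 16, 10 were called higher and 0 lower. Besides Mki67, Top2a, Cenpf, Cdk1, Pole, Lpin2, Gabbr2 and Lepr they held Aspm, a spindle pole protein of neural progenitors (0.193 to 0.249 TPM against 0.0394 to 0.184), and the histone Hist1h2bn (2.09 to 2.57 against 0.67 to 1.98), whose interactions were 0.55 ± 0.43 and 0.79 ± 0.38 and not called. Of the 11 below, 9 were called lower, among them Ramp3, the corepressor Aes (611 to 645 TPM against 649 to 765) and Fundc2, a mitochondrial outer membrane protein (25.1 to 27.3 against 28.8 to 32.7). Aspm, Hist1h2bn, Aes and Fundc2 are named after their values were seen. For the sedentary knockout the same count was 14 above and 47 below, of which 5 were called lower and 17 higher. The calls and the separation rest on the same values, so the direction of the calls follows from the separation. How many genes would separate when nothing differs was not computed, and the wild-type groups were not counted. These counts are therefore not read as an excess.

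The study itself chose 2 sets of genes on the interaction and on pairwise comparisons of these same libraries, so their counts are not independent of it. Lists above that hold such genes share this limit, among them the lists of Mki67, Pole, Gabbr2, Glrb, Gabra3, Grm3, Dbn1, Rgs14, Gstm2 and Lpin2. Over all genes 2.95% were called higher and 2.54% lower. Of 104 tested genes of its larger selection, 31 were called higher and 58 lower here, and 56 lower without the 3 libraries low in nuclear RNA, together with 25 higher. Of the 29 of its smaller selection, 15 were called higher and 8 lower, and 9 and 5 without the 3 libraries. From the genes that its text discusses by name, 31 tied to these selections were taken here, and of the 30 tested, 18 were called higher and 8 lower. Among those not called were the vesicular monoamine transporter Slc18a2 (0.30 ± 0.18), the transcription factor Zic4 (0.82 ± 0.51) and the muscarinic receptor Chrm5 (-1.37 ± 0.65). The study used a different test, a DESeq2 likelihood ratio test on counts. It also measured Slc18a2 and Chrm5 by real-time PCR in the same samples. There it reported both as changed by running in the knockout and between genotypes in running mice.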

How the data were processed

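Total RNA of bilateral dentate gyrus was sequenced in 16 libraries with the Universal Plus mRNA-Seq kit. Per the file headers and the study's methods, the authors aligned reads to mm10 with STAR and deposited StringTie gene tables holding TPM, FPKM and per-base coverage, with no read counts. TPM was summed per gene name and scaled by the median ratio over 13226 genes at 1 TPM or more in every library. The deposited FPKM values served in an alternative, and the deposited coverage values gave relative depth, from 0.621 to 1.95 across libraries. The deepest were p16 WT CTL 2 (1.95) and p16 KO CTL 7 (1.68), both among the libraries low in nuclear RNA. Library p16 KO CTL 6, also low in nuclear RNA, was at 1.02, and all others were at 1.07 or less. The part of depth in the results was not tested. Each gene's log2(scaled TPM + 0.1) was fitted on the 4 groups with limma 3.58.1 (trend), tested two-sided and adjusted by Benjamini-Hochberg over the 17317 genes whose mean reached 0.1 TPM. Fold changes on this scale understate those of low genes. Counting error was not computed, as read counts were not used here. Values are TPM unless called scaled, and ± is the SE of the fit. Nothing says whether libraries were prepared in batches.

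Named genes were any gene with an adjusted p under 0.05, the 12 genes of smallest p in each direction at 1 TPM or more, the genes discussed by name in the study, called list members at 1 TPM or more, Cdkn2a and tissue markers. Genes and lists were chosen with earlier results of these data known. The script was tested on simulated data. Some genes that the rule names are not reported here.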

Additional observations from a re-analysis of the deposited data

Results flagged for a closer look

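A library was marked where it stood far from the other 3 of its group (Dixon's criterion), which chance alone does in about 1 in 20 groups. This held for 33 of 540 groups tested, and no cause was tested.

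Several marks fell on p16 WT CTL 2, which was low in nuclear RNA: Nfix at 86.0 TPM, Gabbr2 at 233, Mki67 at 0.527, Pou3f1 at 5.35, Cox7c at 665 and Cdkn2a at 0.586, with summed levels of 554 for the CDK, Rb and E2F genes, 5588 for antioxidant genes and 60390 for ribosomal protein genes. In p16 WT CTL 1 the blood genes summed to 1184. In p16 KO CTL 7 Tmed5 stood at 29.3 TPM, the choroid plexus gene Ttr at 191 and the choroid plexus sum at 241. In p16 KO CTL 8 the values were 0.243 TPM for Cenpf, 7.01 for Klhl4, 25.6 for Gabra3 and 3.82 for Tap1, with sums of 357 for CA1 and 47.1 for ependymal genes.

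Among running wild-type libraries the marked values were Lepr 0.702 TPM and a blood sum of 725 in p16 WT RUN 12, Cenpf 0.285, Rplp1 3551 and Rps28 1097 in p16 WT RUN 11, Mocos 2.58 and Mki67 0.957 in p16 WT RUN 9, and a CA1 sum of 218 in p16 WT RUN 10. Among running knockout libraries they were Lmo4 279 and Ccna2 3.05 TPM in p16 KO RUN 16, Grm7 63.6 TPM and a CA1 sum of 170 in p16 KO RUN 14, Rplp2 955 TPM in p16 KO RUN 15 and Cdkn2a 0.413 TPM in p16 KO RUN 13.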

How the results depend on the processing

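The number of genes with an adjusted p under 0.05 (limma) was 0 in every setting but 1, with a range of 0 to 1 when single libraries were left out. With array weights, 1752 genes were called higher and 1147 lower. Over fits with 1 library left out, 332 to 1385 genes were called higher and 290 to 993 lower, mitosis and G2/M genes called higher numbered 6 to 14, ribosomal protein genes called lower 2 to 32, running calls in the knockout 2064 to 4826 and in the wild type 620 to 1166. With a filter at a mean of 1 TPM, 5 mitosis genes were called higher. Ribosomal genes called lower numbered 6 after quantile normalization, 67 with array weights and 5 without the 3 libraries low in nuclear RNA, an alternative added after the data were seen. Running calls in the knockout were then 1637. The cause of these shifts was not tested.

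The sign turned for 3 genes that were never called in the main fit. Dcx gave -0.014 with a nuclear RNA score as covariate, -0.15 without the 3 libraries and -0.035 to 0.28 with 1 library left out. Ttr gave -0.0069 with a pseudocount of 1, -0.25 with array weights and -0.69 to 0.97 with 1 library left out, and Calb1 -0.17 to 0.26. Of the 93 called genes among those named, 43 stayed called with any library left out and 69 without the 3 libraries. No paired analysis was possible because each replicate number in the labels is used by 1 library. The tables held per-base coverage and no read counts, so counting error per gene was not computed.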
